A study of Mus musculus with 24 samples.

Results

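The genes described here mark B cells, T cells and the tissue of lymph nodes, and were measured in the pancreas of 24 mice by RNA-seq. They are the entries of the deposited gene table whose Ensembl identifier maps to 33 symbols, which gave 35 of 51912 entries because Ccl21a and Ccl19 each have a second entry on an unplaced scaffold, called the scaffold copy below. By role, 16 are T cell genes, 10 are B cell genes, 4 are shared by lymphocytes in general and 5 are entries for chemokines that lymphoid tissue makes. All mice were C57Bl/6J, an inbred laboratory strain, carried no transgene or deletion that the labels name, and were sampled at clock hour 8 of the light schedule. They formed 8 groups of 3, normal circadian or circadian disrupted, male or female, early (day 1) or late (day 8 in females, day 9 in males), so that at the late time sex and day cannot be told apart. The sources used here do not say how the rhythm was disrupted, how old the mice were or how the pancreas was freed of neighbouring tissue. The study asked how the pancreas differs early and late in re-entrainment, in which an organ's daily rhythm settles on a light schedule again. The deposited values are RSEM expected counts, and the libraries held 31325562 to 62390463 of them.

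T cells recognise peptides through a receptor whose signal passes through the CD3 chains, and B cells recognise antigen through a surface antibody whose signal passes through CD79A and CD79B. In lymph nodes and spleen, stromal cells secrete CCL21 and CCL19, which draw T cells through the receptor CCR7, and CXCL13, which draws B cells through CXCR5. The pancreas lies against the spleen, carries lymph nodes within and beside it, and is wrapped in fat that holds small lymphoid clusters of its own. In bulk RNA, fewer cells of a type and less RNA per cell cannot be told apart.

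Levels below are counts per 1000000 counts of the library (CPM) after scaling of the libraries. Lymphocyte RNA was a trace of the pancreas in most mice and was high in a few single libraries. The 35 entries summed to 5.07 CPM in the lowest mouse, normal circadian late male 2, and to a median of 24.6 CPM. The sum was 269.9 CPM in disrupted early female 1, 117.8 CPM in disrupted late male 1, 106.8 CPM in normal circadian early female 3, 95.004 CPM in disrupted late female 1 and 67.9 CPM in disrupted late female 3. The antibody genes Ighm, Ighd and Igkc made up 63.2%, 85.5%, 79.6%, 64.5% and 75.4% of these sums. Without those genes disrupted early female 1 had 99.3 CPM and disrupted late female 1 was second at 33.7 CPM. Normal circadian early female 3 followed at 21.8 CPM and disrupted late male 1 at 17.1 CPM. Disrupted early female 1 had the highest level of 34 of the 35 entries, the exception being the Ccl19 scaffold copy with a single count in disrupted early male 2. Disrupted late female 1 was second for 22 entries, disrupted early male 1 for 5 and disrupted late male 1 for 4. Per kilobase of exon the median level was highest for the immunoglobulin light chain gene Igkc, at 17.5 CPM per kb, followed by the heavy chain gene Ighm at 4.21, Ccl21a at 1.37 and Cxcl13 at 0.623 CPM per kb. The comparisons are given with all mice, without 2 libraries (disrupted early female 1 and disrupted late female 1), without 3 (also disrupted late male 1) and without 4 (also normal circadian early female 3), the last set chosen after the values were seen. These 4 libraries have the highest member sums, and the sets of 2 and 3 hold disrupted mice only. Leaving those out lowers the disrupted levels, so smaller effects of disruption without them support nothing by themselves.

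**Figure D1:**
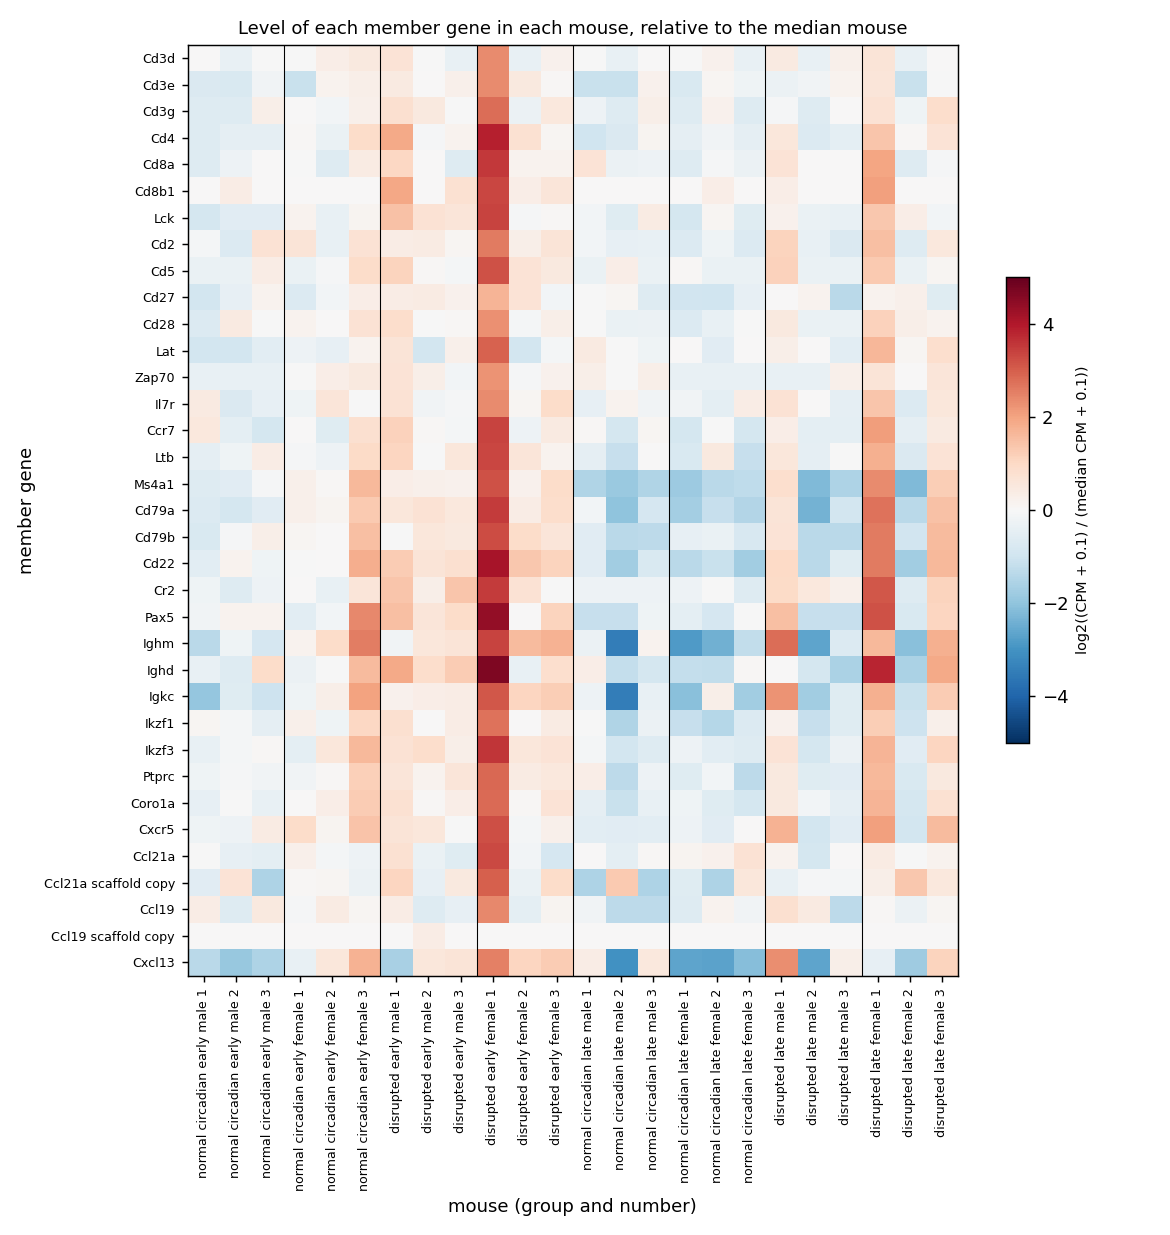
Level of each of the 35 entries (rows) in each of the 24 mice (columns, in groups of 3 divided by lines), as log2 of CPM plus 0.1 over the median CPM plus 0.1. Disrupted early female 1 is high across nearly all rows, disrupted late female 1 across the T and B cell rows, and disrupted late male 1 is second highest in Ighm, Igkc, Ccl19 and Cxcl13.

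Among the T cell genes, Cd3d, Cd3e and Cd3g encode the signalling chains of the T cell receptor, and Cd4, Cd8a and Cd8b1 the coreceptors of helper and cytotoxic T cells. These genes stood at the edge of detection. The median mouse had 1 count of Cd3d, 4.5 of Cd3e, 2 of Cd3g, 5 of Cd4, 2 of Cd8a and 0 of Cd8b1, and Cd8b1 had no count in 15 of 24 mice. In disrupted early female 1 the levels were 0.577 CPM for Cd3d, 1.02 for Cd3e, 0.970 for Cd3g, 3.72 for Cd4, 1.70 for Cd8a and 0.918 for Cd8b1. This mouse was the highest for all 16 T cell genes, and for Cd8b1 the next mice were disrupted late female 1 at 0.312 CPM and disrupted early male 1 at 0.280 CPM.

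Lck encodes the kinase that starts the signal of the T cell receptor, and lies on chromosome 4 at 129548344 to 129573641 of GRCm38, on the minus strand. Its levels in the 6 normal circadian early mice were 0.0319, 0.0604 and 0.0612 CPM in males and 0.170, 0.0845 and 0.165 CPM in females. In the disrupted early mice they were 0.560, 0.298 and 0.266 CPM in males and 2.41, 0.129 and 0.152 CPM in females. All 3 disrupted early males lay above all normal circadian early mice, while the disrupted females 2 and 3 lay within the range of the normal females. At the late time the normal circadian mice ranged from 0.0299 to 0.216 CPM and the disrupted mice from 0.0865 to 0.519 CPM, and the groups overlapped.

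The bases upstream of the distal start of Lck are shown because Lck was the only member to pass the test described below. They span chr4:129573642-129573891 of GRCm38.p6 on the minus strand, from the RefSeq promoter table. Capitals mark the core of the ETS motif, AGGAAG or its complement CTTCCT, which ETS family transcription factors of lymphocytes bind. It occurs in 17 of 27 windows of 250 bases upstream of members, belonging to 14 of the 21 symbols with a window, and in 29.5% of all 32851 windows in that table.
Lck distal: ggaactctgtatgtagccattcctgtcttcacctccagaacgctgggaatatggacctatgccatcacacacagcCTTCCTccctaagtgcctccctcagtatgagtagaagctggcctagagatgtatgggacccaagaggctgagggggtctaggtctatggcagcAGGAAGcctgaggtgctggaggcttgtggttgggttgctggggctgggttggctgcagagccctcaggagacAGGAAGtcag

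The other T cell genes were also highest in disrupted early female 1, but the next mouse varied: disrupted late female 1 was second for 10 of all 16 T cell genes and disrupted early male 1 for 4. Cd2 and Cd5 (surface receptors), Cd27 and Cd28 (costimulation), Lat and Zap70 (an adaptor and a kinase downstream of the receptor), Il7r (the receptor for the survival cytokine IL-7), Ccr7 and Ltb (the lymphotoxin beta ligand that maintains lymphoid stroma) had median levels between 0.0255 CPM for Cd5 and 0.152 CPM for Cd27. Their highest levels, all in disrupted early female 1, ran from 0.525 CPM for Zap70 to 2.12 CPM for Ltb. Ccr7 was 1.78 CPM in that mouse, 0.675 CPM in disrupted late female 1 and 0.308 CPM in disrupted early male 1. Summed over the 16 T cell genes, the same mice held 21.7, 5.95 and 4.40 CPM, and the other 21 mice 0.478 to 2.62 CPM.

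**Figure D2:**
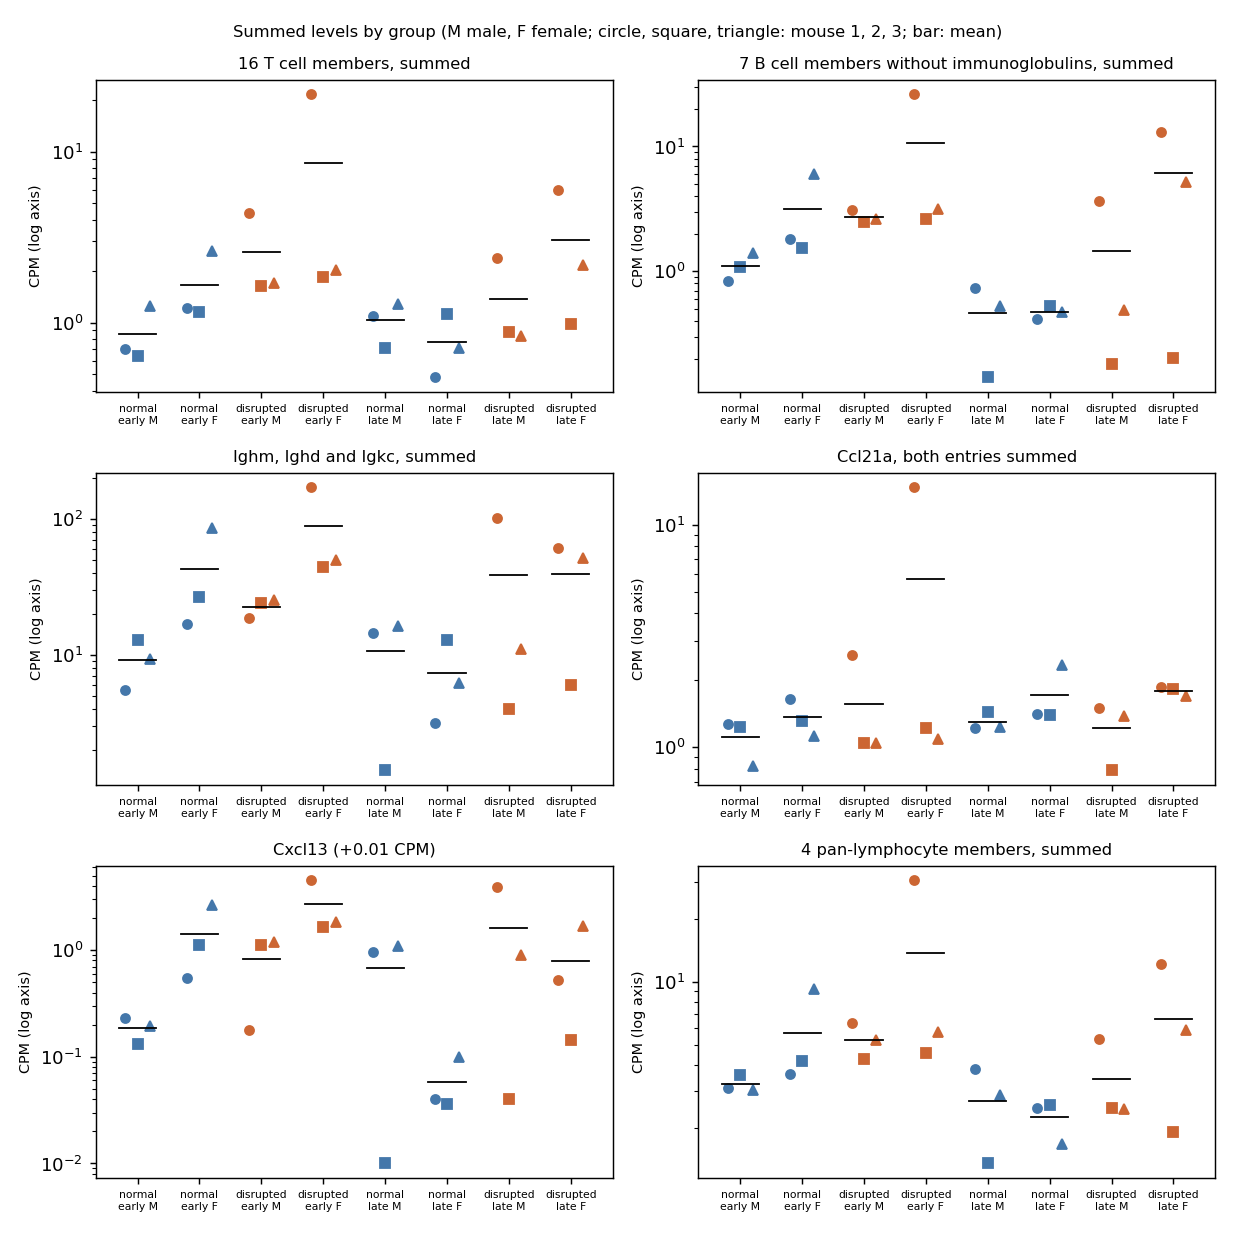
Summed CPM (log axis) of the T cell, B cell, immunoglobulin and pan-lymphocyte members, of Ccl21a and of Cxcl13 (with 0.01 CPM added), for each mouse by group; symbols are mice 1, 2 and 3 and bars are group means. Ccl21a stands apart only in disrupted early female 1, at 14.8 CPM, whereas Cxcl13 is highest in that mouse, at 4.54 CPM, and in disrupted late male 1, at 3.93 CPM.

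The B cell genes were better detected. Cd79a and Cd79b encode the signalling chains of the B cell receptor, Ms4a1 encodes CD20, Cd22 an inhibitory coreceptor, Cr2 the complement receptor of mature B cells and follicular dendritic cells, and Pax5 the transcription factor that holds B cell identity. The levels of Ms4a1 in the late normal circadian mice were 0.0608, 0.0283 and 0.0616 CPM in males and 0.0299, 0.0787 and 0.0888 CPM in females. In the late disrupted mice they were 0.711, 0.000 and 0.0576 CPM in males and 2.26, 0.000 and 0.990 CPM in females. Thus 3 disrupted late mice lay above all normal late mice and 2 had no count of Ms4a1. At the early time Ms4a1 was 0.192 to 1.32 CPM in the normal circadian mice, with a median of 0.358, and 0.426 to 4.12 CPM in the disrupted mice, with a median of 0.461, and the groups overlapped. Cr2 was at most 0.138 CPM in any normal circadian mouse, and reached 1.63 CPM in disrupted early female 1 and 1.22 CPM in disrupted late female 1. Of the counts of 7 B cell genes without the immunoglobulins and the 16 T cell genes together, the B cell genes made up 54.8% in disrupted early female 1 (exact 95% interval 52.5 to 57.1), 68.8% in disrupted late female 1 (65.3 to 72.1) and 41.4% in disrupted early male 1 (35.5 to 47.6).

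Ighm and Ighd encode the constant regions of IgM and IgD, and Igkc that of the kappa light chain. Ighm in the early normal circadian mice was 3.03, 6.76 and 4.35 CPM in males and 8.91, 14.97 and 46.7 CPM in females. In the early disrupted mice it was 6.97, 11.6 and 12.5 CPM in males and 82.6, 24.1 and 26.9 CPM in females. In the late normal circadian mice it was 6.50, 0.623 and 8.93 CPM in males and 1.02, 1.42 and 3.29 CPM in females. In the late disrupted mice it was 55.6, 1.18 and 4.84 CPM in males and 24.7, 1.79 and 27.6 CPM in females. The disrupted and normal mice overlapped at both times, and the late disrupted mice spanned the widest range relative to their lowest value, with 3 mice above 24 CPM and 3 below 5 CPM.

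Ighd, which resting follicular B cells carry beside Ighm, made up an uneven share of the counts of both genes. Of the Ighd and Ighm counts together, Ighd made up 14.3% in disrupted late female 1 (exact 95% interval 12.3 to 16.5), 12.6% in disrupted early male 1 (9.01 to 17.1) and 8.35% in disrupted early female 1 (7.45 to 9.33). It made up 0.364% in disrupted late male 1 (0.157 to 0.716), 1.68% in normal circadian early female 3 (1.13 to 2.41) and 0.532% in disrupted early female 2 (0.173 to 1.24). The 3 mice with the highest T cell sums were thus among the 4 with the highest Ighd share, the other being normal circadian early male 3 with 9.55% of few counts (5.45 to 15.3). These intervals, like all below, cover counting error only.

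Variable segments of the antibody genes, looked at after the members' values were seen, differed between the same mice. Reads were shared among similar segments by estimation, so the share of any one segment is uncertain. Ighv11-2 was the leading heavy chain segment in 11 of 24 mice and Igkv14-126 the leading kappa segment in 15 of 24. In 1 of these 15, disrupted early female 1, Igkv14-126 was tied with Igkv4-55 at 74 counts each. In the mouse, the pair of Ighv11-2 and Igkv14-126 is known from B-1a cells, an innate-like B cell of body cavities, as an antibody against phosphatidylcholine. The last 120 germline bases of the second coding exon of each, from GENCODE M21 on GRCm38, are shown because these segments led more libraries than any other. They span chr12:114048241-114048360 on the minus strand and chr6:67896523-67896642 on the plus strand. Capitals mark the germline bases after the conserved cysteine codon.
Ighv11-2: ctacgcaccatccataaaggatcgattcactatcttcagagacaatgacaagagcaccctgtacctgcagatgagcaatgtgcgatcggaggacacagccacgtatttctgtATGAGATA
Igkv14-126: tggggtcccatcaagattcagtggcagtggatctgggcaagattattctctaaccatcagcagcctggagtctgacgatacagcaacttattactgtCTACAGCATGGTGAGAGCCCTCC

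Ighv11-2 held 33.1% of heavy chain segment counts in normal circadian early female 2, 26.7% in normal circadian early female 3 (105 of 393 counts) and 26.8% in disrupted early female 3. It held 16.1% in disrupted late male 1 (68 of 422), where Ighv6-3 led with 22.5%. It held 4.20% in disrupted early female 1 (36 of 857), 0.560% in disrupted late female 1 (2 of 357) and no count of 123 in disrupted early male 1, which allows up to 2.95%. The 3 mice with high T cell genes therefore had low shares of this segment, and used many segments at low shares. A further 5 mice had no count of Ighv11-2, of 13 to 154 segment counts. Of these, normal circadian late female 2 had 154 segment counts, an Igkc count 8.06 times its Ighm count and an Igha level of 16.7 CPM, the Igha gene encoding the IgA constant region.

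**Figure D3:**
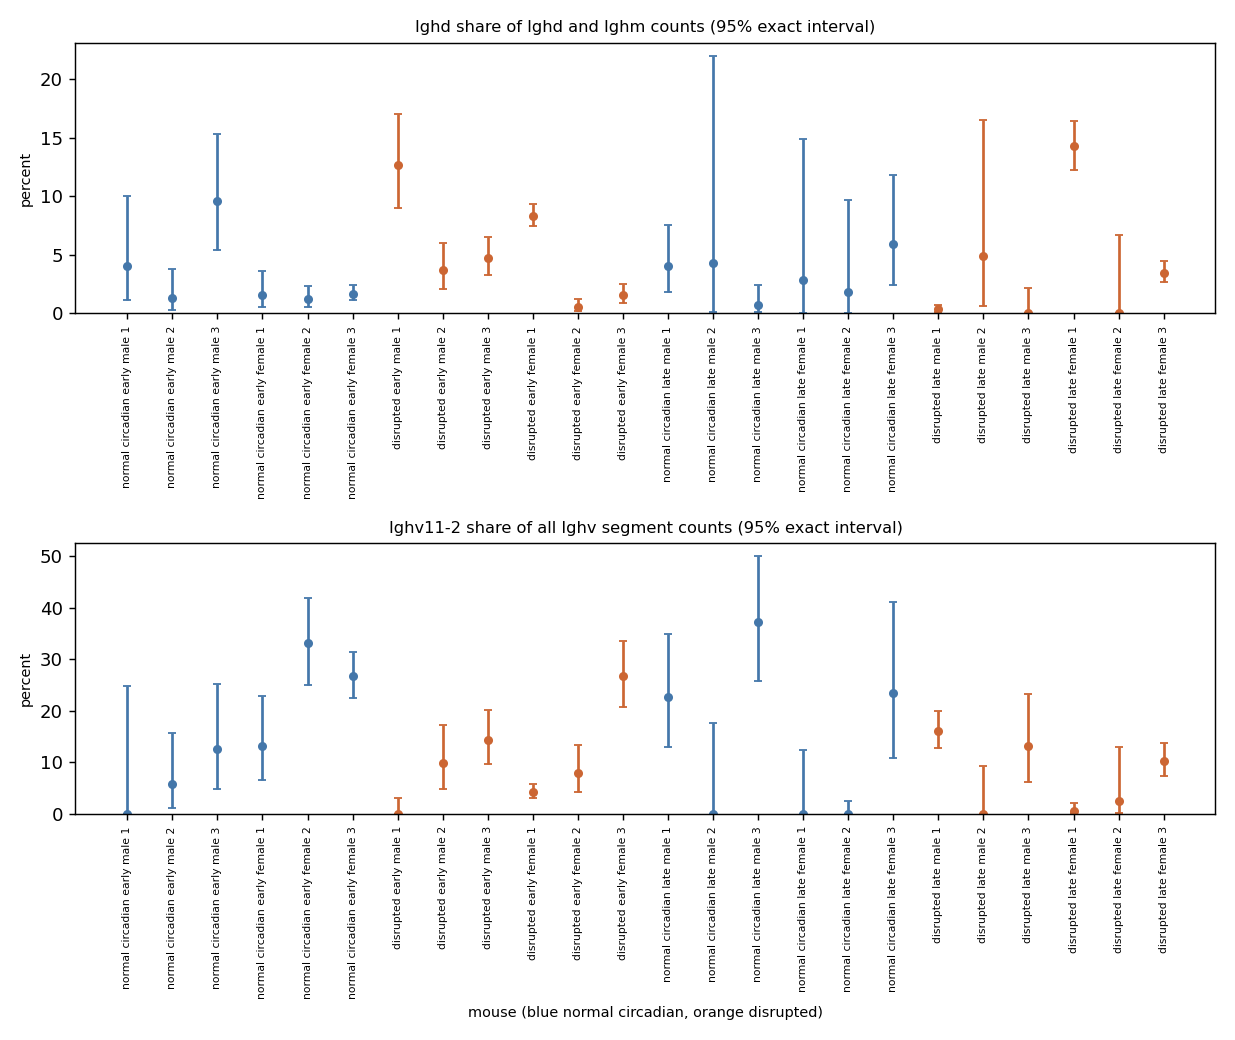
Share of Ighd in the Ighd and Ighm counts (top) and of Ighv11-2 in all heavy chain variable segment counts (bottom), in percent for each mouse with exact 95% intervals. Disrupted late female 1 and disrupted early male 1 have the highest Ighd shares above and shares near 0 below.

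Of the genes shared by lymphocytes, Ptprc encodes the CD45 phosphatase, Coro1a an actin regulator, and Ikzf1 and Ikzf3 the transcription factors Ikaros and Aiolos. Ptprc and Coro1a are made by white blood cells in general. Ptprc was 0.622 to 3.96 CPM in the 12 normal circadian mice, and 13.1 CPM in disrupted early female 1 and 5.40 CPM in disrupted late female 1. Their sum with the Ikaros genes was highest in those 2 mice, at 30.6 and 12.1 CPM, against 9.25 CPM in normal circadian early female 3.

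The chemokines separated the libraries further. Ccl21a was 12.6 CPM in disrupted early female 1 and 0.605 to 2.10 CPM in the other 23 mice, and Ccl19 was 1.23 CPM in that mouse and at most 0.330 CPM in the others. Disrupted late female 1 had 1.61 CPM of Ccl21a and 0.156 CPM of Ccl19, within the range of the remaining mice, although it was second for 10 of 16 T cell genes and 8 of 10 B cell genes. The exceptions among the B cell genes were Ighm and Igkc, for which disrupted late male 1 was second. Cxcl13 in the early normal circadian mice was 0.223, 0.121 and 0.184 CPM in males and 0.539, 1.10 and 2.62 CPM in females. In the early disrupted mice it was 0.168, 1.10 and 1.17 CPM in males and 4.54, 1.63 and 1.84 CPM in females. At the late time it was 0.942, 0.000 and 1.08 CPM in normal males, 0.0299, 0.0262 and 0.0888 CPM in normal females, 3.93, 0.0302 and 0.893 CPM in disrupted males and 0.519, 0.135 and 1.68 CPM in disrupted females. Cxcl13 was therefore near 0 in all 3 late normal females and high in disrupted late male 1, and the disrupted and normal mice overlapped at each time. The 6 mice without an Ighv11-2 count had Cxcl13 levels of 0.000 to 0.223 CPM, and the 18 mice with one 0.0888 to 4.54 CPM. The same 6 mice had 0.623 to 6.97 CPM of Ighm, against 1.79 to 82.6 CPM in the 18. They had 13 to 154 heavy chain segment counts, against 34 to 857. A segment can be missed among so few counts, and a link between Ighv11-2 and Cxcl13 was not tested.

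Ccl21a on chromosome 4 at 42772860 to 42773993 has near-identical copies, so its level may include reads of the other genes. Ccl21b and the genes Gm10591, Gm13304 and Gm21541 each differ from it at 2 of 402 coding bases, T84A and C194T, with positions counted from 1 at the first coding base. The stretch that holds both differences, coding positions 64 to 214, is shown from GENCODE M21 with the differing bases in capitals.
Ccl21a: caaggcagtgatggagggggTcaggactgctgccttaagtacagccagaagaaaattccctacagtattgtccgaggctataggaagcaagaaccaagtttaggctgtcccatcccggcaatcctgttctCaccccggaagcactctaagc
Ccl21b: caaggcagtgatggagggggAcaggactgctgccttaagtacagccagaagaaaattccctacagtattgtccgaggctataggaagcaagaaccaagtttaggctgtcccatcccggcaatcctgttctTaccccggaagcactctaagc

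The promoters of Ccl21a and Cxcl13 are shown because these chemokines parted between libraries. They span chr4:42773992-42774241 on the minus strand and chr5:95956689-95956938 on the plus strand of GRCm38.p6, from the RefSeq table, with the ETS core and, in Cxcl13, the TATA box (TATAAA or TTTATA) in capitals. A TATA box of these letters is in 12.4% of all windows.
Ccl21a: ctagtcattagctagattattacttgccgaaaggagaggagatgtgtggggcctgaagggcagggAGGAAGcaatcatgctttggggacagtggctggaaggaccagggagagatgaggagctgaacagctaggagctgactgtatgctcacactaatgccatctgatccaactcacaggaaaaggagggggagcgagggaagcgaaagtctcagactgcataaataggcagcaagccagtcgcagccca
Cxcl13: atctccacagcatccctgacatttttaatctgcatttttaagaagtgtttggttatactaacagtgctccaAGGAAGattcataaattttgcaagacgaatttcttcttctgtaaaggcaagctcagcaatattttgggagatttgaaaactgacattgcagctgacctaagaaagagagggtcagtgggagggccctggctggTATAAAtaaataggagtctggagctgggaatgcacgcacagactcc

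Genes outside the list stood beside the members in the same libraries. Glycam1, a mucin of the high endothelial venules through which lymphocytes enter lymph nodes, was 24.7 CPM in disrupted early female 1, 0.504 CPM in disrupted early male 1 and 0.0177 CPM in disrupted early male 3, and had no count in 21 mice. Disrupted early female 1 also had the highest level of Marco, a scavenger receptor of macrophages, at 6.69 CPM, and of the 14 adipocyte genes summed, at 124.7 CPM. In disrupted late female 1, where Glycam1 had no count, Coch reached 5.92 CPM and Itgad 1.19 CPM, and Spic, a transcription factor of the iron-recycling macrophages of the spleen, 0.753 CPM, each the highest of 24 mice. Disrupted early female 1 was second for each of these genes, at 0.997, 0.420 and 0.393 CPM. The 15 genes of the spleen list, which include those of red blood cells, summed to 105.9 CPM in disrupted late female 1 against a median of 22.8 CPM. Only normal circadian early male 1 was higher, at 126.6 CPM, and the sum was 47.2 CPM in disrupted early female 1. The red blood cell gene Hbb-bs alone held 59.0, 87.1 and 25.2 CPM of these 3 sums, so they are in large part not particular to spleen. Spic had no count in normal circadian early male 1. The adipocyte genes of disrupted late female 1 summed to 22.6 CPM, below the median of 28.1 CPM. The adipocyte sums of normal circadian early female 3 and disrupted late male 1, at 76.7 and 73.4 CPM, were the next highest after disrupted early female 1. The part of lymph node, spleen or fat tissue in these levels was not tested.

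Across all other genes, those that stood highest over the median of the remaining libraries differed between the 3 mice with the highest member sums. In disrupted early female 1 the 10 leading genes at 1 CPM or more were Xist, Glycam1, Gm45837, Ighg1, Marco, Fcer2a, Ngp, Gm12191, Apol7c and Igkv4-55. Fcer2a, which encodes the IgE receptor CD23 of follicular B cells, was 3.38 CPM there. In disrupted late male 1 they were Igkv3-5, Igkv1-88, Ighv6-3, Igkv12-89, Gm10359, Gm12671, Igkv5-39, Ighv12-3, Hp and Ighg3, of which 6 are antibody variable segments. In normal circadian early female 3 they were Xist, Ngp, S100a9, Ltf, Igkv8-16, Rpl31-ps9, S100a8, Mpo, Ighv11-2 and Igkv4-91, of which Ngp, S100a8, S100a9, Ltf and Mpo are genes of neutrophils and their precursors. Xist, made by cells with an inactive X chromosome, leads in the females, and the other libraries include those of males.

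**Figure D4:**
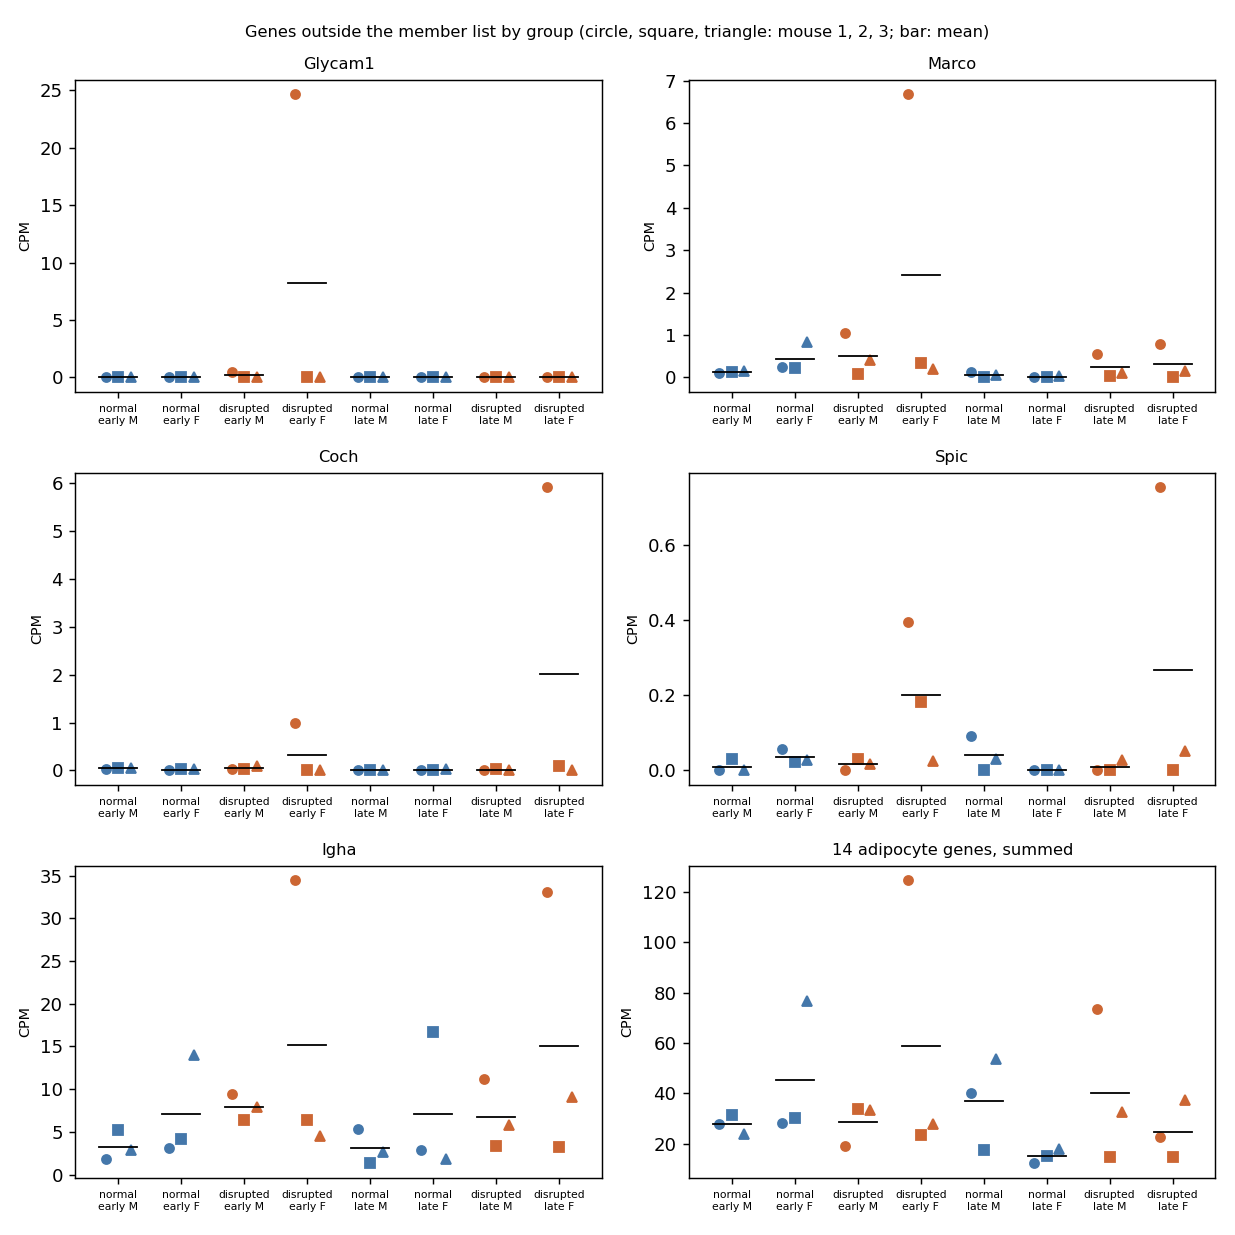
Levels in CPM of Glycam1, Marco, Coch, Spic and Igha and the summed level of 14 adipocyte genes, for each mouse by group; symbols are mice 1, 2 and 3 and bars are group means. Glycam1 and Marco peak in disrupted early female 1, Coch and Spic in disrupted late female 1, and the adipocyte sum in disrupted early female 1.

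For the comparison of disrupted with normal circadian mice, 23 of the 35 entries passed the filter on low counts and were tested. A member that passed through the libraries where it is high had to differ, so the counts over tested members support nothing by themselves. The other 12 were Cd3d, Cd3e, Cd3g, Cd8a, Cd8b1, Cd5, Cd27, Cd28, Lat, Zap70 and both Ccl19 entries. At the early time 1 member was called, Lck, which rose by 2.72 ± 0.68 on the log2 scale (standard error), from 0.0956 ± 0.0583 CPM in normal to 0.636 ± 0.884 CPM in disrupted mice (SD, 6 each), with an adjusted p of 0.0235 in edgeR's quasi-likelihood test. Lck passed the filter through disrupted mice alone. Its highest levels, 2.41, 0.560, 0.519 and 0.298 CPM, were theirs, and normal circadian mice reached at most 0.216 CPM. The call of Lck therefore supports nothing by itself either. Of all 14000 genes tested 4.56% were called, 2.09% higher and 2.47% lower. All 23 tested members had a positive fold change with a median of 1.37, against 51.1% of all genes and a median of 0.00. By p in that test, Cd4 followed with 2.45 ± 0.73 (adjusted p = 0.0631), Cr2 with 3.21 ± 0.98 (0.0684), Cd22 with 1.82 ± 0.79 (0.239) and Ltb with 1.65 ± 0.75 (0.251). The call of Lck did not hold in edgeR's test with some single libraries left out. Without disrupted early female 1, its highest mouse, the fold change was 1.40 with an adjusted p of 0.152. The adjusted p was 0.0504 to 0.0590 without normal early male 1, 2 or 3, normal early female 2 or disrupted early male 1. Leaving out the highest mouse had to lower the estimate, and each such fit had fewer mice. These values therefore support nothing by themselves. DESeq2 called 1 member, Cd4, and gave no adjusted p for Lck, while voom called 0. The DESeq2 count is given without its share over all genes, so nothing is read from it. Lck was not called without the low-count filter or in either sex alone. The median fold change was 0.60 both without 2 and without 3 libraries, where 17 of the 19 members tested were positive, and 1.08 without 4, where 16 of 17 were. No member was called without 2, 3 or 4 libraries, but each of these sets takes out the disrupted early mouse with the highest levels. Beside the members, 10 of 13 tested adipocyte genes were positive, with a median of 0.39. So were 5 of 8 genes of the spleen list, with a median of 0.17. The part of both lists in the result was not tested.

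At the late time none of the 23 was called in edgeR's quasi-likelihood test, while 1.35% of all genes were called, 0.571% higher and 0.779% lower. Before adjustment 10 of the 23 had a p below 0.05 in that test. DESeq2 called 4, Ighm, Ms4a1, Cr2 and Cd22, and limma's voom 0. The unadjusted count and the DESeq2 count are given without their shares over all genes, so nothing is read from them. The fold changes were positive for 22 of the 23, with a median of 1.71. The 5 members with the smallest p were Ighm at 2.62 ± 0.87 (adjusted p = 0.161 in edgeR's test), Ms4a1 at 3.18 ± 1.10 (0.176), Cr2 at 3.03 ± 1.07 (0.179), Cd22 at 3.34 ± 1.19 (0.189) and Cxcl13 at 2.70 ± 1.05 (0.228). Ccl21a was at -0.09 ± 0.59 (0.966). The median was 1.20 without 2 libraries, 0.61 without 3 and 0.56 without 4, with 18 of 19, 17 of 19 and 15 of 17 members positive. All 8 tested genes of the spleen list were also positive, with a median of 0.74, and 12 of 13 adipocyte genes, with a median of 0.75. Of either list 0 were called, and their part in the result was not tested.

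**Figure D5:**
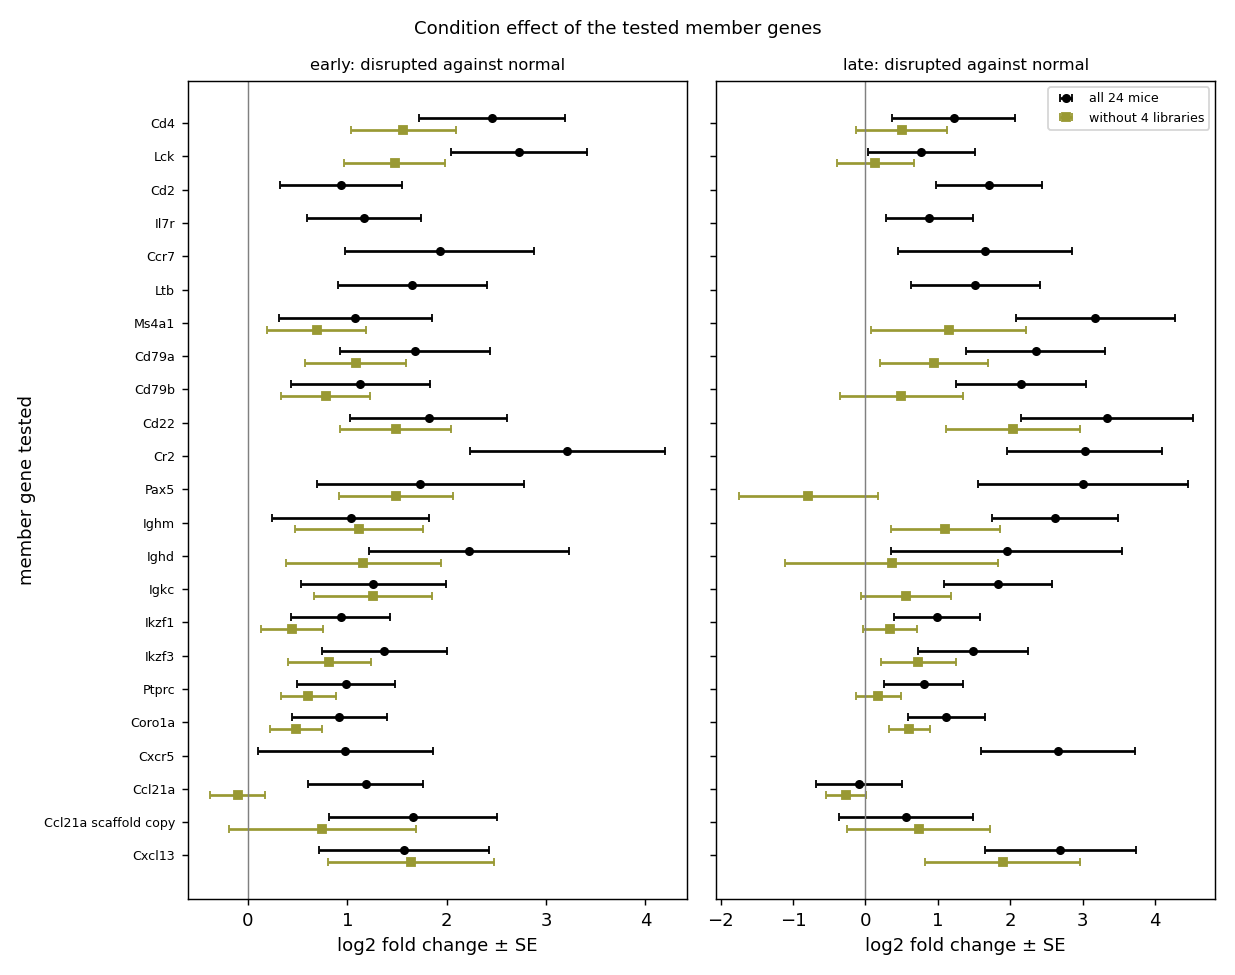
Log2 fold change with standard error, disrupted against normal circadian mice, of the 23 tested members at the early (left) and late (right) time, with all 24 mice (black) and, for the 17 members still tested, without the 4 libraries of highest member sum (olive). Over the members tested in each, the median is 1.37 and 1.08 early and 1.71 and 0.56 late.

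The condition effect was compared between the times. None of the 23 members was called in the difference of the effects in edgeR's quasi-likelihood test, none had an unadjusted p below 0.05, DESeq2 and voom called 0, and 4.77% of all genes were called, 2.31% higher and 2.46% lower. The difference, late minus early, was positive for 13 of the 23, with a median of 0.11, for 1 of 6 T cell genes and for 8 of 10 B cell genes. The early and late effects were 2.72 and 0.77 for Lck, 1.08 and 3.18 for Ms4a1 and 1.03 and 2.62 for Ighm, whereas the T cell gene Cd2 was at 0.94 and 1.71 and the B cell gene Cr2 at 3.21 and 3.03. The differences were -1.95 ± 1.05 for Lck, -1.28 ± 0.83 for Ccl21a, 2.10 ± 1.39 for Ms4a1, 1.58 ± 1.17 for Ighm and 1.68 ± 1.42 for Cxcr5. The value of Ighm was -0.0144 without 4 libraries, and that of Cxcr5 -0.0585 without disrupted late male 1. The median was 0.79 without 2 libraries, 0.13 without 3 and -0.14 without 4, where 4 of 17 members were positive.

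Within disrupted mice, all 23 members had a lower estimate late than early, with a median of -0.85 against -0.01 over all genes. None was called in edgeR's quasi-likelihood test, where 13.9% of all genes were called, 7.36% higher and 6.55% lower. Before adjustment 3 members had a p below 0.05 in that test, a count given without its share over all genes. DESeq2 called 1, Cd4, and voom called 0, also without their shares, so nothing is read from these counts. The values were -1.65 ± 0.60 for Lck (adjusted p = 0.0736), -1.69 ± 0.67 for Cd4 (0.103), -1.08 ± 0.50 for Ikzf1 (0.171), -1.15 ± 0.61 for Ikzf3 (0.228) and -0.98 ± 0.56 for Ccl21a (0.280). Without disrupted early female 1 the value of Ccl21a was 0.25. The median was -0.45 without 2 libraries, with 5 of 19 members positive, -0.98 without 3, with 1 of 19 positive, and -0.99 without 4, with 1 of 17 positive. Without 4 libraries Pax5 was called in edgeR's quasi-likelihood test, at -3.46 ± 0.97 (adjusted p = 0.0246), beside 1365 of 14048 genes. That set takes out the late disrupted mice with the highest Pax5, disrupted late female 1 at 1.92 CPM and disrupted late male 1 at 0.533 CPM. It was chosen after the values were seen, so the call supports nothing by itself. The sets of 3 and 4 take out the late disrupted mice with the highest member sums, so their medians support nothing by themselves either. Of 13 tested adipocyte genes 2 were positive, with a median of -0.61, and of 5 dendritic cell genes 0 were positive and 2 were called lower, and their part in the result was not tested.

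On day 1, all 23 members had a higher estimate in females than in males, with a median of 1.46, and none was called in edgeR's quasi-likelihood test, against 0.893% of all genes, 0.493% higher and 0.400% lower. Before adjustment 10 members had a p below 0.05 in that test. This count is given without its share over all genes, so nothing is read from it. DESeq2 and voom called 0. Cxcl13 was at 2.33 ± 0.84 (adjusted p = 0.195), Ighm at 2.20 ± 0.80 (0.198), Igkc at 1.98 ± 0.74 (0.208), Ikzf3 at 1.60 ± 0.62 (0.218) and Coro1a at 1.15 ± 0.48 (0.253). The 13 tested adipocyte genes were also all higher in females, with a median of 1.27, and their part in the result was not tested. The median of the members was 0.49 both without 2 and without 3 libraries, with 16 of 19 higher in females, and 0.20 without 4, with 12 of 17 higher.

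Members varied more between replicate mice than nearly all other genes. Genes on the other strand overlap exons of Cd3e, Cd22, Pax5, Coro1a and Cxcr5. As the strand setting was not given, reads of the overlapping genes cannot be told apart here. MicroRNA genes overlap exons of Lck, Cd27 and Lat on the same strand. The biological coefficient of variation, the spread between mice beyond counting noise, ran from 0.53 for Coro1a to 1.29 for Pax5, between the 97.0th and the 99.4th percentile of all genes tested, whose median was 0.116. Of 14 tested further T cell genes and 25 tested further B cell genes, 0 were called at either time in edgeR's test, with medians of 0.77 and 1.16 early and 0.44 and 1.22 late. Of 22 tested genes of antigen receptor signalling 1 was called early, Fyn at 0.32 ± 0.07 (adjusted p = 0.00878), a kinase of the same family as Lck that many tissues express, beside 4.56% of all genes.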

How the data were processed

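Pancreas RNA of 24 mice was prepared by a modified RNeasy protocol and sequenced from TruSeq libraries, per the labels. The deposited table holds RSEM expected counts per gene, made by the authors without normalization. Per the submitters' processing notes, bcl2fastq 2.20, STAR 2.5.3a, RSEM, edgeR 3.28.0 and genome build GRCm38.p5 were used. The annotation and strand setting were not given in the sources used here, so reads of overlapping genes, such as Coro1a with Bola2, cannot be told apart. GENCODE M21 matched 51719 of 51912 identifiers.

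Expected counts were rounded, changing 7.97% of values by at most 0.5. filterByExpr over 8 groups left 14000 genes, and TMM factors ran from 0.943 to 1.12. Using edgeR 4.0.16, its quasi-likelihood test with robust estimation was run on 8 group means, with Benjamini-Hochberg adjustment over all genes and a threshold of 0.05. It was tested on simulated data with a single spread between mice, lower than that of any member tested. The simulation therefore does not show how the test behaves for the members. Alternatives were other scalings, no filter, DESeq2 1.42.0, limma 3.58.1 voom, a replicate block, single sexes and libraries left out. Fold changes are given for called members and the 5 with the smallest p, and other genes by list or as the 10 leading genes of the 3 libraries with the highest member sum. The members and lists were chosen with earlier results of these data known.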

Additional observations from a re-analysis of the deposited data

How the results depend on the processing

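The count of members called early, 1 with the settings reported, was 0 without the low-count filter, with voom, in males only, in females only, and without the sets of 2, 3 or 4 libraries named above, and 0 to 4 when single mice were left out. It was 1 with DESeq2 (Cd4), where the adjusted p of Lck was not given. The late count of 0 was 4 with DESeq2. The count for disrupted late against early, 0, was 1 with DESeq2 and 1 without 4 libraries, and 0 to 2 with single mice left out. These counts of members are given without the shares over all genes of the same settings, so nothing is read from them. Over all genes, the early count of 639 was 180 in males, 210 in females and 412 without 4 libraries. The late count of 189 was 333 without the filter, 97 in males, 21 in females and 311 without 2 libraries, and 71 to 261 with single mice left out. The difference count of 668 was 201 in males and 285 in females. The count for disrupted late against early of 1948 was 948 in males. The day 1 sex count of 125 was 301 without the filter, 258 with DESeq2, 65 without 4 libraries, and 55 to 220 with single mice left out. Directions reversed for Ighm in the difference (-0.0144 without 4 libraries), Cxcr5 in the difference (-0.0585 without disrupted late male 1, and up to 2.97 with other single mice left out) and Ccl21a in disrupted late against early (0.20, 0.0812 and 0.0820 without 2, 3 and 4 libraries, and -1.24 to 0.25 with single mice left out, the highest without disrupted early female 1). The cause was not tested.

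With a replicate block the early count was 2 (Cr2 and Lck) and that for disrupted late against early 1 (Ikzf1). Both are given without their shares over all genes, so nothing is read from them. The numbers did not pair the mice: same-numbered mice of different groups had correlations of -0.21 to 0.40 with a median of 0.01, against -0.01 for other numbers. The set of 4 libraries was chosen after seeing the data. Each of the 16 T cell genes had a median of 6 counts or fewer, so depth limits their comparison between mice.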
